A study of Mus musculus with 4 samples.

Results

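The cytosolic ribosomal protein (RP) genes were examined in lungs with metastases of 4T1 triple-negative breast cancer (TNBC) from mice given saline or the combination ADC/cmLumiOpto. Members were the protein-coding genes named Rpl or Rps with a number, together with Rpsa, Rplp0, Rplp1 and Rplp2, and without the S6 kinases and pseudogenes. This gave 87 of 56748 genes, of which 46 encode proteins of the large (60S) subunit, 31 encode proteins of the small (40S) subunit and 10 are paralogs, retrogenes or genes that only share the name. RNA sequencing was available for 2 saline and 2 ADC/cmLumiOpto samples, which the methods call biological samples, and 81 of the 87 genes had enough counts to be tested.

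All mice were BALB/cJ females that were 7 weeks old when 4T1-FLuc, a mouse TNBC line with a luciferase reporter, was injected into the tail vein, and treatment followed once metastases were seen. Controls were given saline, which the treatment label calls PBS. ADC is an antibody against CD276, linked to mertansine (DM1), which inhibits microtubules. cmLumiOpto is an exosome-associated AAV gene therapy whose light-gated channel depolarizes the mitochondria of cancer cells when the luminescent substrate ViviRen is supplied. The labels and series text give 16 mg/kg of ADC, an added abbreviation Olap, treatment for 3 weeks and tumor cells harvested from the lung, whereas the methods give 8 mg/kg and dissociated lung tissue. Because the tissue was sequenced in bulk, more cells of a type and more RNA per cell cannot be told apart. Libraries held from 15263375 to 19675436 counts. Levels are given as CPM, counts scaled to library size with TMM factors, and a floor of 3 counts lay between 0.146 and 0.202 CPM, for counting error alone.

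RP genes encode the protein part of the ribosome, and their mRNAs are short and among the most abundant of a growing cell. In vertebrates most of these mRNAs begin with a cytosine followed by a run of pyrimidines, the 5′ terminal oligopyrimidine (TOP) motif. mTORC1 signaling controls how strongly TOP mRNAs are translated, and the RNA-binding protein LARP1 holds them in a repressed state when mTORC1 is inactive. Ribosomal proteins that are not built into a subunit are usually degraded, although Rpl5 and Rpl11 in complex with the 5S RNA can bind MDM2 and thereby stabilize p53.

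The motif could be seen in the start regions of the RefSeq annotation (GRCm38.p6), which held an entry for 67 of the 87 genes. A cytosine at the annotated start followed by at least 4 pyrimidines was present in 13 of the 67 genes (19.4%), compared with 2.49% of the first listed promoters of 27025 genes. A run of at least 8 pyrimidines within 20 bases of the start was present in 44.8% of the RP entries and 16.3% of all entries. Windows of 26 bases (10 before the start and 16 from it) are shown for genes whose expression is described below, with the pyrimidine run in capitals. Rps6 (chr4:86857352-86857377, minus strand), Rps18 (chr17:33955650-33955675, minus strand), Rps10 (chr17:27635229-27635254, minus strand), Rps27 (chr3:90213633-90213658, minus strand), its retrogene Rps27rt (chr9:114982724-114982749, minus strand), Rps21 (chr2:180257369-180257394, plus strand), Rpl38 (chr11:114668570-114668595, plus strand) and Rplp2 (chr7:141447641-141447666, plus strand) had the following starts.
Rps6: gaagtcgggcCTCTTTTTCgtgacgc
Rps18: cacttccgctCTCTCTTCCacaggag
Rps10: gcgcacgcccCTTCCTTTCCagcctc
Rps27: cgctttcgctCCTTTCCggcggtgac
Rps27rt: ttatcccttgCTTTCCggcggtgacg
Rps21: aggacccgccCTCCTgcccaatagtg
Rpl38: aagcctcgttCTTTCCCCgttctctt
Rplp2: cagcgtcttcCTTTCgccgccggacg
The run measured 9 bases in Rps6 and Rps18, 10 in Rps10, 8 in Rpl38 and 7 in Rps27, and 5 in both Rps21 and Rplp2. Rps27 and Rps27rt share the bases that follow the run, although they are transcribed from chromosomes 3 and 9. Across 300 bases of promoter (250 before and 50 after the start, both strands), CCGGAAG, a site of ETS factors, was found in 37.3% of the RP entries and 9.12% of all entries. AAGATGG, the core of the YY1 site, was found in 13.4% and 6.48%, and the SP1 site GGGCGG in 59.7% and 35.9%. The TATA box TATAAA was found in 8.96% of the RP entries and 14.2% of all entries, and the E-box CACGTG in 7.46% and 7.24%. CCGGAAG ends with the letters that begin AAGATGG, so that a single stretch can hold both, and a match describes the letters only.

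RP mRNA took a larger share of the reads in both ADC/cmLumiOpto samples than in either saline sample. Of all counts, the 87 genes held 5.42% and 5.3% with saline, compared with 7.48% and 6.07% after ADC/cmLumiOpto (exact binomial 95% intervals at most 0.0244 percentage points wide, for counting error only and not for the spread between mice). The means were 5.36% ± 0.0805 (SD, n = 2) and 6.78% ± 0.997 (SD, n = 2), a ratio of 1.26. The groups did not overlap, and the two-sided exact permutation test gave p = 0.333, the smallest value possible with 2 samples per group. The 60S genes went from a mean of 3.11% to 3.88% and the 40S genes from 2.2% to 2.84%. The gap between the 2 ADC/cmLumiOpto samples, 7.48% against 6.07%, was about as large as the difference between the group means. Computed from counts divided by the gene length listed with the counts, the share was 10.2% for both saline samples, 11.8% for ADC/cmLumiOpto sample 1 and 10.1% for sample 2, so that the groups overlapped on this scale (exact permutation p = 1.0).

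Gene by gene, 76 of the 81 tested RP genes had a higher estimate with ADC/cmLumiOpto and 5 a lower one, and none had an adjusted p under 0.05 by the quasi-likelihood test of edgeR, as for 0.0% of all 15320 tested genes. The median log2 fold change was 0.32 for the RP genes (quartiles 0.19 and 0.49) and 0.03 for all tested genes. At an unadjusted p under 0.05, 21 RP genes (25.9%) were higher, beside 11.0% of all tested genes, and 0 were lower, beside 12.2%. Both ADC/cmLumiOpto samples lay above both saline samples for 54 of the 81 genes (66.7%), beside 28.1% of all genes, and below both for 2 genes (2.47%), beside 28.8%. With other tests on the same counts, 3 RP genes were called higher at an adjusted p under 0.05 by edgeR's exact test (background 3.84%) and 7 by DESeq2 (background 3.78%). The 3 genes were Rps14, Rps27 and Rpl9, and DESeq2 added Rpl22l1, Rps21, Rpl41 and Rps9. The share of RP genes called was therefore near the background in the exact test and above it in DESeq2.

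**Figure D1:**
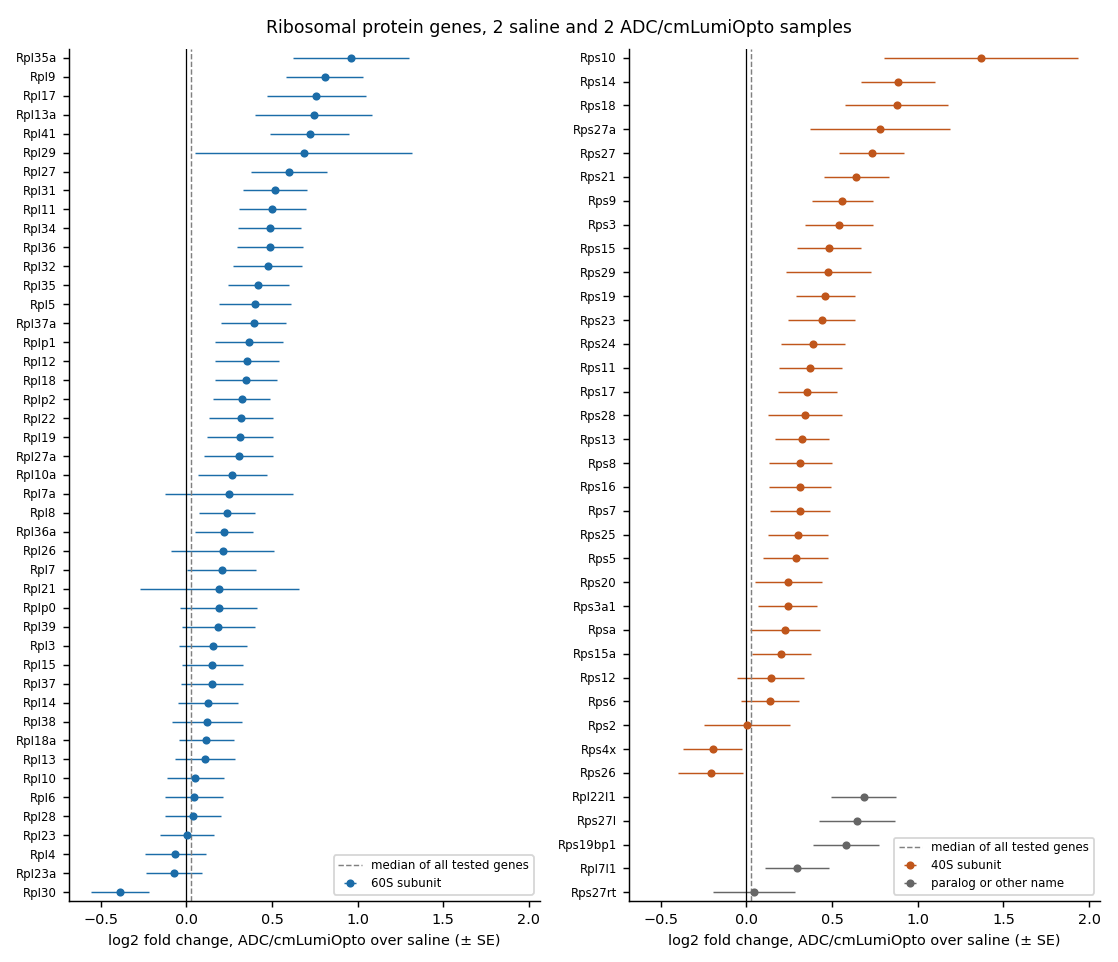
Log2 fold change of each tested RP gene (x axis, ADC/cmLumiOpto over saline, point with SE, 2 samples per group) for the 60S genes on the left and for the 40S genes and the other names on the right. Most points lie right of 0 and of the median of all tested genes (dashed line, 0.03), and Rpl30, Rps26, Rps4x, Rpl23a and Rpl4 lie left of 0.

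The 2 ADC/cmLumiOpto samples differed from each other in nearly all RP genes. Relative to the mean of the saline samples, the median RP gene stood at 0.50 on the log2 scale in ADC/cmLumiOpto sample 1 and at 0.14 in sample 2. Sample 1 was the higher of the pair for 78 of the 81 genes, whereas it was the higher for 48.0% of all tested genes. The saline samples were split, with sample 1 higher for 38 of the 81 genes, and their median absolute log2 difference was 0.06, compared with 0.37 between the ADC/cmLumiOpto samples. The widest gaps were in Rps27a, which encodes a ubiquitin fusion protein of the 40S subunit (977 against 380 CPM), Rpl7a (449 against 195 CPM) and Rpl13a (99.7 against 46.5 CPM). Without ADC/cmLumiOpto sample 1, the median log2 fold change of the RP genes was 0.14 and 8 of 84 genes (9.52%) were higher at an unadjusted p under 0.05, beside 8.9% of all tested genes, and 1 lower (Rps26), beside 7.86%. The share of RP genes called higher was thus near the background in that fit. Without sample 2, the median was 0.49 and 54 of 82 genes were higher, beside 10.4% of all genes, and 1 lower (Rpl30), beside 12.8%. Without saline sample 1 the median was 0.32 and 2 of 84 genes (2.38%) were higher, below the 10.5% of all genes, and without saline sample 2 it was 0.34 and 6 of 84 (7.14%) were higher, beside 5.25%. A rule given with the processing chose genes for naming, and 35 of those tested had a log2 fold change above 0. Of these, 27 had a value more than 1.5 times smaller, or below 0, without ADC/cmLumiOpto sample 1. Among the 13 of them at an unadjusted p under 0.05 this applied to 6. These were Rps18 (0.36 in place of 0.88), Rpl35a (0.55 in place of 0.96), Rpl9 (0.49 in place of 0.81), Rpl41 (0.41 in place of 0.72), Rps27l (0.34 in place of 0.65) and Rpl11 (0.28 in place of 0.50). Genes outside the rule were not counted, such as Rpl17 (0.36 in place of 0.76) and Rps3 (0.32 in place of 0.54).

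**Figure D2:**
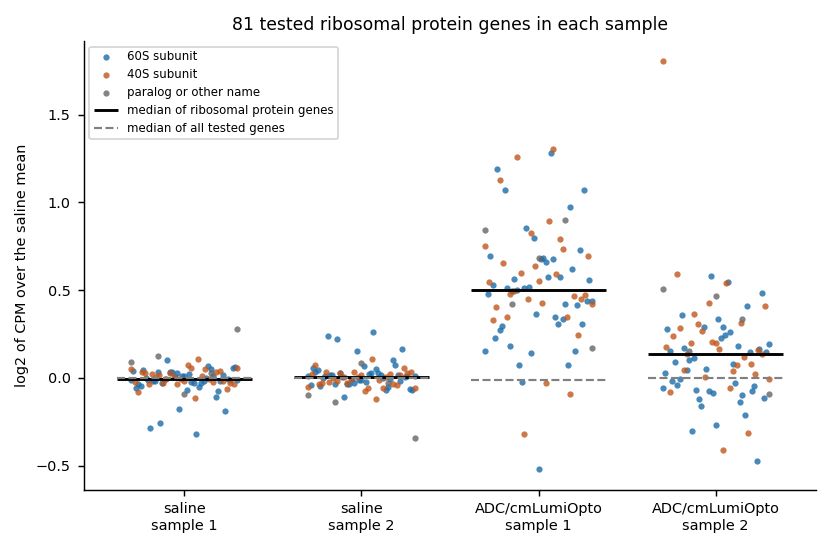
CPM of the 81 tested RP genes in each sample, as log2 of the ratio to the saline mean (y axis), with the median of the RP genes (solid line) and of all tested genes (dashed line). The RP median is 0.50 in ADC/cmLumiOpto sample 1 and 0.14 in sample 2, whereas the median of all genes is near 0 in each sample.

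Transcript length moved with the result. RP transcripts were short, with a median of 729 bases in GENCODE M21 compared with 2593 bases over all tested genes, and short transcripts as a whole had higher estimates with ADC/cmLumiOpto. Among the 895 tested genes with a transcript under 600 bases the median log2 fold change was 0.42, and the 31 RP genes among them had a median of 0.47. Between 600 and 1000 bases the medians were 0.35 over 1198 genes and 0.28 over 32 RP genes, and between 1000 and 2000 bases 0.21 over 3464 genes and 0.21 over 16 RP genes. The 2 RP genes between 2000 and 4000 bases, Rpl5 and Rps20, had a median of 0.32, where 5706 genes had a median of -0.01. Their lengths, 2045 and 3706 bases, are those of the annotated transcript chosen, and which form was expressed here was not determined. Genes of 4000 bases or more, none of them RP genes, had a median of -0.27. Across the 15173 tested genes with a known transcript, Spearman's rho of length and log2 fold change was -0.38 as a description, since genes share the 4 libraries. When the trend of each sample on transcript length was removed, the median of the RP genes was 0.003, the 60S median -0.04 and the 40S median 0.04, and 4 RP genes (4.94%) were higher and 4 lower at an unadjusted p under 0.05, beside 9.82% and 9.17% of all tested genes. In that fit Rps14, Rpl9, Rps27 and Rps3 were the higher genes and Rps4x, Rps26, Rpl23a and Rpl30 the lower ones. The RP medians were thus within 0.1 of those of all genes in the classes under 2000 bases, which hold 79 of the 81 tested members, and above it for the 2 longer ones. The part of length in the shift was not tested.

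**Figure D3:**
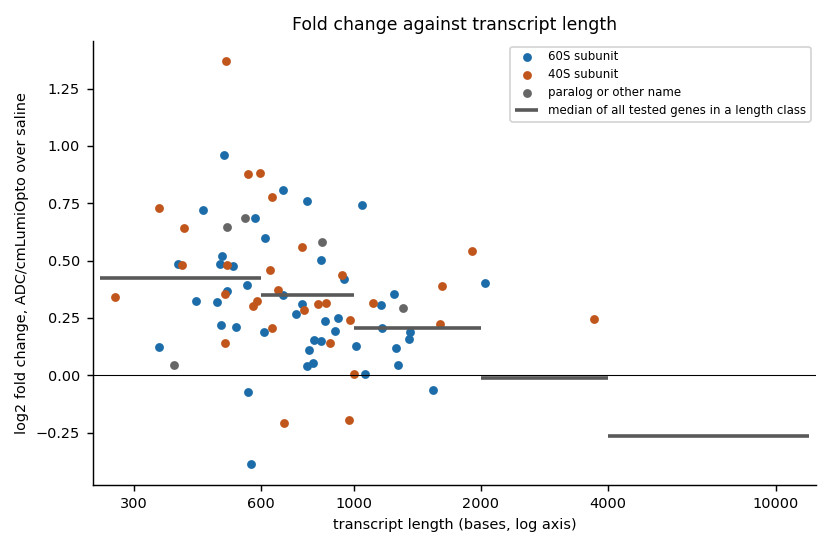
Log2 fold change (y axis, ADC/cmLumiOpto over saline) of the tested RP genes against the length of their transcript in bases (x axis, log axis), with the median of all tested genes in 5 length classes as horizontal lines. The lines fall from 0.42 under 600 bases to -0.27 at 4000 bases or more, and the RP genes scatter around the lines of their classes.

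Markers of several cell types also moved with the groups. For comparison, 11.0% of all tested genes were higher and 12.2% lower at an unadjusted p under 0.05. Summed CPM of 5 alveolar epithelial markers was 1546 and 327 with saline, compared with 5644 and 4841 after ADC/cmLumiOpto, with 5 of 5 higher at an unadjusted p under 0.05. The 6 fibroblast markers summed to 5065 and 3462 in saline and 1720 and 1396 with treatment, and 6 of 6 were lower. The 7 myeloid markers summed to between 1880 and 3135 in saline and between 5748 and 9802 with treatment (3 of 7 higher). The 6 T lymphocyte markers summed to 11.9 and 34.8 against 38.7 and 78.5 (3 of 6 higher), 5 B lymphocyte markers to 2.09 and 4.93 against 6.87 and 7.08 (1 of 3 tested higher), and 5 erythroid markers to 351 and 1109 against 1869 and 2072 (3 of 5 higher). The 5 endothelial markers overlapped between the groups, at 371 and 453 against 437 and 646. The 6 epithelial markers listed for the carcinoma, Epcam and keratins among them, summed to 2635 and 3018 in saline and 2570 and 2472 with treatment (1 of 6 lower). Epcam and Cdh1 had estimates above 0, and Krt8, Krt18, Krt19 and Krt14 below 0. Tumor and lung epithelium were not separated, so this sum does not measure tumor content. No marker of these lists was at 0 in all samples. The mitochondrially encoded genes held 1.13% and 1.17% of counts in saline and 2.09% and 1.84% with treatment. The part of these differences in the RP result was not tested.

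Among the 45 tested 60S genes, 42 had a higher and 3 a lower estimate, and the median log2 fold change was 0.27. At an unadjusted p under 0.05, 9 were higher, beside 11.0% of all tested genes, and 0 lower, beside 12.2%. Rpl9, a protein at the base of the stalk, had the smallest p of the subunit. Its CPM was 699 and 712 in saline and 1482 and 988 with treatment, which gave a log2 fold change of 0.81 ± 0.23 (SE) and, by edgeR, an adjusted p of 0.131. Both treated samples were above both saline samples, and sample 1 was the higher. Rpl41, the smallest ribosomal protein and the RP gene with the highest level per length, had 1185 and 1372 CPM in saline and 2512 and 1701 CPM with treatment, a log2 fold change of 0.72 ± 0.23 (edgeR, adjusted p = 0.151). Per kilobase of transcript its mean over the 4 samples was 3873 CPM, followed by Rplp1 with 2697, Rps9 with 2194 and Rpl13 with 1831. Rpl35a, one of the genes mutated in Diamond-Blackfan anemia, was at 9.3 and 13.9 CPM in saline and 28.3 and 17.0 CPM with treatment, a log2 fold change of 0.96 ± 0.34, and of 0.93 with reads of near-identical rows added.

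The stalk proteins Rplp0, Rplp1 and Rplp2 recruit elongation factors to the 60S subunit. Rplp1 was at 1228 and 1123 CPM in saline and 1729 and 1303 CPM with treatment, and Rplp2 at 467 and 475 against 639 and 538 CPM. Both were without overlap, with log2 fold changes of 0.37 ± 0.20 and 0.32 ± 0.17 (adjusted p = 0.305 and 0.289 in edgeR). Rplp0 overlapped, at 1664 and 1531 against 2166 and 1476 CPM, with a log2 fold change of 0.19.

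Of the proteins that bind the 5S RNA or MDM2, Rpl11 was at 609 and 659 CPM in saline and 1027 and 770 CPM with treatment. Its log2 fold change was 0.50 ± 0.20 (edgeR, adjusted p = 0.195). Rpl5, its partner on the 5S RNA, was at 1337 and 1483 against 2166 and 1560 CPM, a log2 fold change of 0.40 ± 0.21. Without ADC/cmLumiOpto sample 1 the values were 0.28 for Rpl11 and 0.15 for Rpl5. Rpl23, which also binds MDM2, was at 800 and 806 against 845 and 767 CPM, so that its treated samples lay on either side of the saline samples (log2 fold change 0.01 ± 0.16). The spread between these 3 genes is part of a wider spread among 60S genes, in which Rpl13, Rpl10 and Rpl4 also had overlapping groups. Rpl4 was at 1743 and 1722 against 1820 and 1497 CPM (log2 fold change -0.06), and Rpl10, which completes the subunit late in its maturation, at 1289 and 1306 against 1445 and 1247 CPM (0.05). Rpl13a, which takes part in the translational silencing of inflammatory mRNAs, was at 45.0 and 42.3 CPM in saline and 99.7 and 46.5 CPM with treatment, and its log2 fold change of 0.74 became 0.09 without ADC/cmLumiOpto sample 1. Rpl38, required for the translation of several Hox mRNAs, was at 261 and 237 against 315 and 227 CPM, with overlapping groups.

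Among the 31 tested 40S genes, 29 had a higher and 2 a lower estimate, and the median log2 fold change was 0.34. At an unadjusted p under 0.05, 9 were higher, beside 11.0% of all tested genes, and 0 lower, beside 12.2%. Rps14, whose loss on one allele underlies the anemia of the 5q- syndrome, had the smallest p of all RP genes. It was at 730 and 701 CPM in saline and 1563 and 1079 CPM with treatment, which gave a log2 fold change of 0.88 ± 0.22, with an adjusted p of 0.123 by edgeR and 0.00492 by DESeq2. Both treated samples lay above both saline samples, with an SD of 342 CPM in the treated pair and 20.6 CPM in the saline pair. Without ADC/cmLumiOpto sample 1 its log2 fold change was 0.59. Rps9 was at 1300 and 1365 against 2154 and 1772 CPM, a log2 fold change of 0.56 ± 0.18. Rps19, the gene most often mutated in Diamond-Blackfan anemia, was at 554 and 560 against 844 and 689 CPM, a log2 fold change of 0.46 ± 0.17.

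Rps6, the substrate of the S6 kinases, was at 1128 and 1152 CPM in saline and 1353 and 1157 CPM with treatment (log2 fold change 0.14 ± 0.17). Rps25, needed for initiation on several viral RNAs, was at 545 and 492 against 698 and 581 CPM (0.30 ± 0.17). Rpsa, which is also known as the laminin receptor, was at 2547 and 2354 against 3284 and 2440 CPM, with overlapping groups. Sample 2 of the treated group was thus close to the saline samples for Rps6 and Rpsa.

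Rps4x and Rps26 had lower estimates. Rps4x, an X-linked gene, was at 1824 and 1743 CPM in saline and 1676 and 1437 CPM with treatment, without overlap, and its log2 fold change was -0.20 ± 0.17 (edgeR, adjusted p = 0.524). Rps26, which lines the exit of the mRNA channel, was at 834 and 771 against 787 and 603 CPM, with overlap and a log2 fold change of -0.21 ± 0.19. Both genes were below other transcripts of their length, and with the length trend removed their log2 fold changes were -0.49 and -0.54.

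Some genes at the ends of the order had most of their reads on near-identical rows, which was the case for 4 of the 10 members with the highest or lowest log2 fold change (Rps10, Rpl35a, Rps18 and Rpl30). RP genes have many processed pseudogenes, and 77 of the 87 members shared at least 1 stretch of 100 bases with another gene's transcript. For 14 members, Rpl17, Rpl21, Rpl24, Rpl26, Rpl29, Rpl30, Rpl35a, Rpl36al, Rplp0, Rps2, Rps10, Rps18, Rps23rg1 and Rps27rt, the look-alike rows held more counts than the gene itself, and levels of these genes are uncertain. Rps10 had the highest log2 fold change, 1.37 ± 0.57, from 15 and 13 counts in saline and 27 and 65 with treatment, whereas its pseudogene Rps10-ps2 had 3471 and 3214 counts in saline and 4660 and 4304 with treatment. With the look-alike rows added, Rps10 was at 233 and 234 CPM in saline and 290 and 230 CPM with treatment, and its log2 fold change was 0.16. Rpl30 had the lowest log2 fold change, -0.39 ± 0.17, at 103 and 101 CPM in saline and 71.0 and 84.6 CPM with treatment. The row Gm12191, which shares its sequence, had 6840 and 6872 counts in saline and 9746 and 10104 with treatment, and together Rpl30 was at 536 and 569 against 635 and 585 CPM (log2 fold change 0.14). Rpl29 had 6 and 7 counts in saline and 13 and 13 with treatment, and its estimate of 0.69 became -0.14 with the 14530 counts of its look-alike rows. For these 3 genes the estimate of the gene row therefore rests on a small part of the reads that match the sequence. Rps18 behaved otherwise. Its own row was at 23.4 and 24.4 CPM in saline and 57.1 and 30.7 CPM with treatment, and with look-alike rows it was at 290 and 302 against 646 and 406 CPM, with log2 fold changes of 0.88 and 0.83, although its own row was at 0.36 without ADC/cmLumiOpto sample 1.

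**Figure D4:**
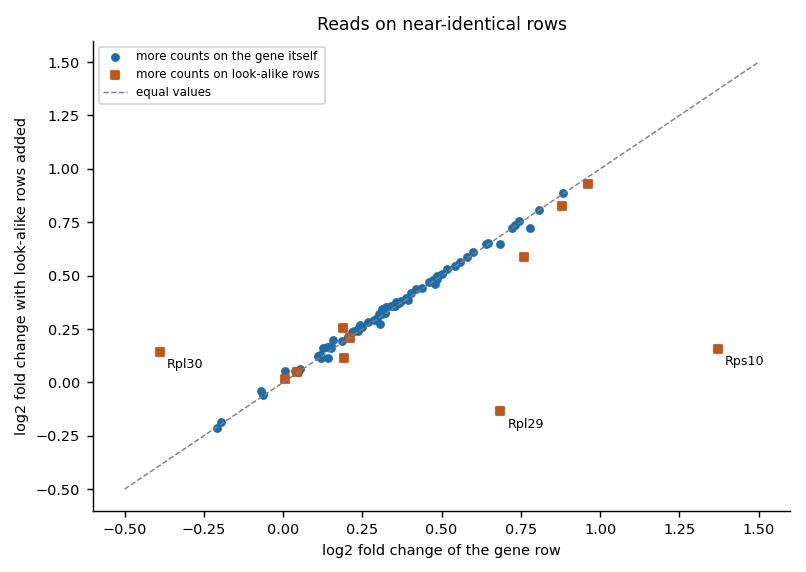
Log2 fold change of each tested RP gene from its own row (x axis) and with the counts of near-identical rows added (y axis), with squares for genes whose look-alike rows hold more counts. Most genes lie on the line of equal values, and Rps10, Rpl29 and Rpl30 move to 0.16, -0.14 and 0.14.

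Added over all members, look-alike reads left the picture as it was, with 84 genes tested, a median of 0.33 and 21 genes higher at an unadjusted p under 0.05, beside 11.1% of all genes. The 325 pseudogene rows held 0.535% and 0.524% of counts in saline and 0.735% and 0.621% with treatment, and 98 of them were tested, with a median log2 fold change of 0.45. The 7 tested members without any shared stretch, Rps27l and Rps19bp1 among them, had a median of 0.54. Shorter matches were not searched, so mixing of reads is not excluded for these members. Both treated samples lay above both saline samples for all 7 members, beside 28.1% of all tested genes. Among these, Rps21 was at 374 and 392 CPM in saline and 680 and 515 CPM with treatment (log2 fold change 0.64), and Rps3 at 1150 and 1156 against 1922 and 1435 CPM (0.54).

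Paralogs expressed in place of the standard proteins were measured at lower levels. Rpl22l1, the paralog of Rpl22, was at 61.4 and 53.7 CPM in saline and 103 and 81.8 CPM with treatment, a log2 fold change of 0.68 ± 0.19 (edgeR, adjusted p = 0.127), and Rpl22 itself was at 403 and 420 against 582 and 445 CPM (0.32 ± 0.19). Rps27l, a p53 target, was at 75.8 and 73.0 against 139 and 94.0 CPM, a log2 fold change of 0.65 ± 0.22. Rps27 was at 369 and 431 CPM in saline and 744 and 583 CPM with treatment, a log2 fold change of 0.73 ± 0.19 (edgeR, adjusted p = 0.123). The retrogene Rps27rt, with a log2 fold change of 0.04 ± 0.24, was at 198 and 129 against 184 and 153 CPM. Rps27 and Rps27rt shared 98.4% and 89.5% of their stretches with other rows, each other included, and the assignment of reads between them is uncertain. Rpl7l1, a nucleolar paralog of Rpl7, was at 114 and 95.5 against 141 and 117 CPM (0.30 ± 0.18), and Rpl7 at 1425 and 1388 against 1879 and 1365 CPM (0.21). Rps19bp1, a regulator of SIRT1 that shares only the name, was at 19.9 and 22.5 against 34.1 and 29.3 CPM (0.58 ± 0.19).

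There were 6 members that were not tested. Rpl10l, a retrogene known from the testis, had 0 counts in each sample, where 3 counts would correspond to at most 0.202 CPM. Rpl3l, the form of Rpl3 found in heart and skeletal muscle, had 2 and 3 counts in saline and 2 and 20 with treatment. Rpl39l had between 0 and 7 counts per sample, Rps23rg1 between 0 and 2 and Rpl36al between 6 and 11. Rpl24 had 25 counts over the 4 samples, with 1038 counts on its look-alike rows.

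Genes outside the naming rule were compared by fixed lists, without removal of the length trend. At an unadjusted p under 0.05, 11.0% of all tested genes were higher and 12.2% lower. Of the subunit proteins with other names, Fau, which encodes Rps30 fused to a ubiquitin-like protein, was at 713 and 671 CPM in saline and 1274 and 1013 CPM with treatment (log2 fold change 0.72 ± 0.18, adjusted p = 0.123 in edgeR). Rack1, a scaffold protein on the 40S subunit, was at 1945 and 1840 against 2521 and 1841 CPM (0.20), with overlapping groups. The 78 mitochondrial RP genes, which build another ribosome, had a median of 0.39 over 77 tested, with 21 higher and 0 lower at an unadjusted p under 0.05, a count like that of the cytosolic genes. Other TOP mRNAs, mainly elongation factors and Pabpc1, had a median of 0.07, with 1 higher and 5 lower of 21. Pabpc1, the poly(A)-binding protein, was at 2760 and 2969 CPM in saline and 1762 and 1661 CPM with treatment, a log2 fold change of -0.74 ± 0.17 (edgeR, adjusted p = 0.116).

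Lists of factors that make or regulate ribosomes had medians between -0.24 and 0.18. The background for their counts is again 11.0% of all tested genes higher and 12.2% lower. The length trend was not removed from these medians. By length class, medians of all tested genes ran from 0.42 under 600 bases to -0.27 at 4000 bases or more. Transcript lengths of the lists were not compared, and the part of length in these medians was not tested. The 18 mTORC1 components and TOP regulators had a median log2 fold change of -0.24, with 0 higher and 3 lower at an unadjusted p under 0.05. Larp1 was at 280 and 270 CPM in saline and 162 and 184 CPM with treatment, without overlap (log2 fold change -0.67 ± 0.16, adjusted p = 0.123 in edgeR), and its groups were apart by more than the spread within either. Of 44 assembly factors of the small subunit, 0 were higher and 4 lower (median -0.04), with Nol6 at 97.2 and 112 against 58.2 and 65.4 CPM. Of 48 factors of the large subunit, 2 were higher and 4 lower (median -0.12), with Efl1, which releases eIF6 from the subunit, at 31.3 and 35.2 against 17.8 and 21.1 CPM. Among 15 tested RNA polymerase I genes 2 were higher and 3 lower (median -0.01), and Rrn3, an initiation factor of that polymerase, was at 74.6 and 73.6 against 51.1 and 49.0 CPM. Of 25 translation initiation factors 2 were higher and 4 lower (median -0.01), with Eif4a2 at 95.3 and 147 against 295 and 200 CPM. None of 6 tested RP chaperones passed an unadjusted p of 0.05 (median 0.18), and Bccip, the one with the smallest p, had overlapping groups at 41.7 and 44.8 against 61.8 and 44.3 CPM.

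**Figure D5:**
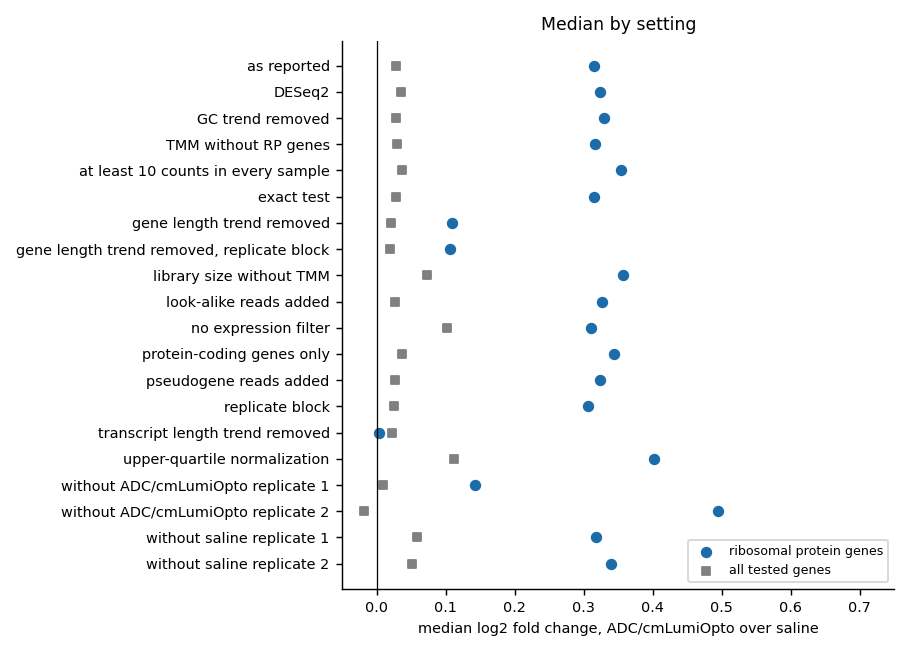
Median log2 fold change (x axis, ADC/cmLumiOpto over saline) of the tested RP genes (circles) and of all tested genes (squares) for each normalization, filter, correction and left-out sample (y axis). The RP median is 0.32 as reported, 0.003 with the transcript length trend removed, and 0.14 and 0.49 without ADC/cmLumiOpto sample 1 and 2.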

How the data were processed

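The values the authors deposited are raw read counts for 56748 genes, with no normalization. Per the methods, reads were aligned with HISAT2 to GRCm38, whereas the labels name mm39 (tools listed in the submitters' processing notes: HISAT2, HISAT, TopHat2). Listed gene spans equalled those of GRCm38 for 1472 of 52073 shared identifiers, so identifiers were used for matching and positions in the table were left out. The counting program, its strand setting and the handling of reads with several matches are not given in the sources used here. The paper gives 4 samples per group and 2 per group were analyzed here.

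Genes were kept by filterByExpr (minimum count 10, minimum total 15) and compared in R 4.3.3 with edgeR 4.0.16 (TMM, glmQLFit, glmQLFTest, Benjamini-Hochberg over all 15320 genes). SE is the log2 fold change divided by the square root of F. Alternatives were edgeR's exact test, DESeq2 1.42.0, other scalings, filters and universes, a replicate block, removal of GC or length trends (lowess span 0.3) and each sample left out. Removal of the transcript length trend and addition of look-alike reads were chosen after seeing the data. Stretches of 100 bases were compared between GENCODE M21 transcripts, taking the shortest principal transcript of each gene. Members, lists and markers were chosen with earlier results of these data known. Genes chosen for naming were the 5 highest and 5 lowest fold changes, the 3 smallest p, the highest and lowest levels per length, paralogs with parents, genes with known separate roles and the smallest p of each list. Not all of them are printed with values. Rps3, Rps21, Rps27a, Rpl7a and Rpl24 were named after their values were seen, as were the genes called by DESeq2. The procedure was tested on simulated data.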

Additional observations from a re-analysis of the deposited data

How the results depend on the processing

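The median over all RP genes stayed above 0 in every setting tried, but its size did not hold. With the transcript length trend removed, it lay below the median of all tested genes, which was 0.0215. With the transcript length trend removed (chosen after seeing the data), the RP medians were 0.00257 (all), -0.0376 (60S) and 0.0441 (40S). In that fit 4 RP genes were higher and 4 lower at an unadjusted p under 0.05 (all genes 9.82% and 9.17%). Of the RP genes, 24 were higher and 21 lower without overlap. Without a length correction, 28.1% of all tested genes were higher and 28.8% lower without overlap. These shares were not determined after a length correction, so the counts without overlap have no background there. With the trend on the listed gene length removed, the medians were 0.11 (all) and 0.14 (40S). Here 10 genes were higher and 4 lower (all genes 9.98% and 9.87%), and 32 were higher and 14 lower without overlap. With the replicate block added to that correction, the medians were 0.11, 0.0623 (60S) and 0.13 (40S), with 8 higher and 3 lower genes (all genes 10.8% and 9.41%) and again 32 and 14 without overlap. The replicate block alone gave 20 higher and 0 lower RP genes (all genes 12.6% and 12.5%) and a median of 0.31. Replicate numbers were not taken as pairs, since the correlation of same-numbered samples' deviations was 0.071 over all genes and -0.17 over RP genes and only 2 pairs exist. The block took the calls over all genes from 0 to 607. Scaling to library size without TMM gave 33 higher genes (all genes 12.3%) and upper-quartile normalization 28 (all genes 14.0%, median 0.40, with 0.11 over all genes). At an adjusted p under 0.05, the exact test called 3 RP genes, DESeq2 7 and the quasi-likelihood test without an expression filter 15. Over all genes these settings called 1143, 1353 and 2259 genes, compared with 0. On the per-length scale the ratio of RP shares was 1.07.

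With each sample left out in turn, higher genes ranged from 2 to 54, lower genes from 0 to 1, RP genes without overlap from 57 to 75 higher and from 2 to 20 lower, the median from 0.14 to 0.49 (60S 0.0862 to 0.50, 40S 0.17 to 0.49) and the ratio of RP shares from 1.13 to 1.4. In these fits the lone sample of a group is assumed to vary like the other group. A lone sample also lies apart from the other group more easily than a pair does. The share of all genes without overlap was not determined for these fits. Their counts without overlap therefore have no background and cannot be set beside those from all 4 samples. Among the 40 tested members chosen by the rule for naming, 53 of 759 values under alternatives had another direction. None of the 13 of them at an unadjusted p under 0.05 changed sign under any alternative. With 2 samples per group, neither group's spread is well estimated, and the cause of these changes was not tested.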
